A study of Spodoptera litura with 9 samples.

Results

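Described here are 62 long non-coding RNAs (lncRNAs) of the moth testis. Set limits chose them as more abundant before the paired testes fuse than during or after fusion. The 62 are not a count of all such lncRNAs. They came from a table of 2476 lncRNA transcripts measured in testes of the tobacco cutworm Spodoptera litura. The 9 libraries, 3 per stage, cover the sixth larval instar at an age of 4 days, when the testes are still separate (L6D4), the same instar at 6 days, when the prepupal testes are fusing (L6D6), and pupae at an age of 0 days, when fusion is over (P0D). The animals carried no stated genetic change. Per the labels' protocols larvae were reared on an artificial diet, and testes of 9 males were dissected, without a statement of how the males were divided over the libraries. Whether the repeats were separate animals is not given either, so the spread between libraries may be partly technical. The diet is named in the labels of the larvae and not in those of the pupae, and feeding, age, metamorphosis and fusion cannot be told apart in these samples. Library totals lay between 2665554 and 4262529 lncRNA counts, and between 756769 and 1349190 once the 10 most abundant lncRNAs were set aside. P0D-3 and L6D4-3 had the highest and the lowest TMM factor (a scaling factor that offsets composition), 1.45 and 0.741. The other libraries lay between 0.85 and 1.13. With size factors kept from all 9 libraries, 54 of the 62 still met the choice without P0D-3 and 55 without L6D4-3. Leaving out any 1 library kept 54 to 62 of them, so these counts say nothing particular about either library.

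The 62 were chosen by their values. Each is an assembled transcript (an ID beginning with MSTRG, the prefix the StringTie assembler gives) that is the single row of its locus, with a mean count of at least 20 and some L6D4 value above 5. All 6 later values (L6D6 and P0D) lay below the lowest L6D4 value, the L6D4 mean was at least 2 times the mean of the 6 later libraries, and the L6D6 and P0D means were less than 1.5-fold apart. Of 1561 single-row assembled loci, 1148 had the minimum count. All 6 later libraries lay below all 3 L6D4 libraries in 164 of these (14.3%), 75 of the 164 also had the 2-fold ratio, and 62 of the 75 also had the flat later course. Levels, folds and overlaps between stages are therefore what the choice used, and are given below as a description with no test. Levels are scaled counts, that is, counts divided by a size factor per library (the median of ratios, which centres the bulk of lncRNAs). They are not corrected for transcript length, so levels are compared between libraries and not between lncRNAs as amounts of RNA.

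An lncRNA is a long transcript that is not known to code for a protein. Such RNAs can act in the nucleus on transcription and chromatin or in the cytoplasm on other RNAs. Testis is known in many animals, insects included, for a large repertoire of lncRNAs, many of them tied to a step of sperm formation. In moths the larval testes lie as a pair, germ cells in them pass from spermatogonia to spermatocytes and on to sperm over the late larval and pupal stages, and in species with fusion the pair joins into one organ around pupation. In whole testes, fewer cells of a type and less RNA per cell cannot be told apart. The deposited lncRNA table was the one used here and holds no coding marker genes, so the tissue label was not checked against markers. The files pair no assembled ID with a gene name or position, and no function is known here for any of the 62.

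None of the 62 was lost. A count was present in every later library for every one of them, and the lowest was 7. The mean over the 6 later libraries was lower than the L6D4 mean by a factor between 2.00 and 10.6, with a median of 2.72. The ratio lay between 2 and 3 for 37 lncRNAs, between 3 and 5 for 19 and above 5 for 6. The lncRNA with the largest ratio still stood at 9.46% of its L6D4 mean in the later libraries. The values thus show a partial drop in level and not an absence.

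**Figure D1:**
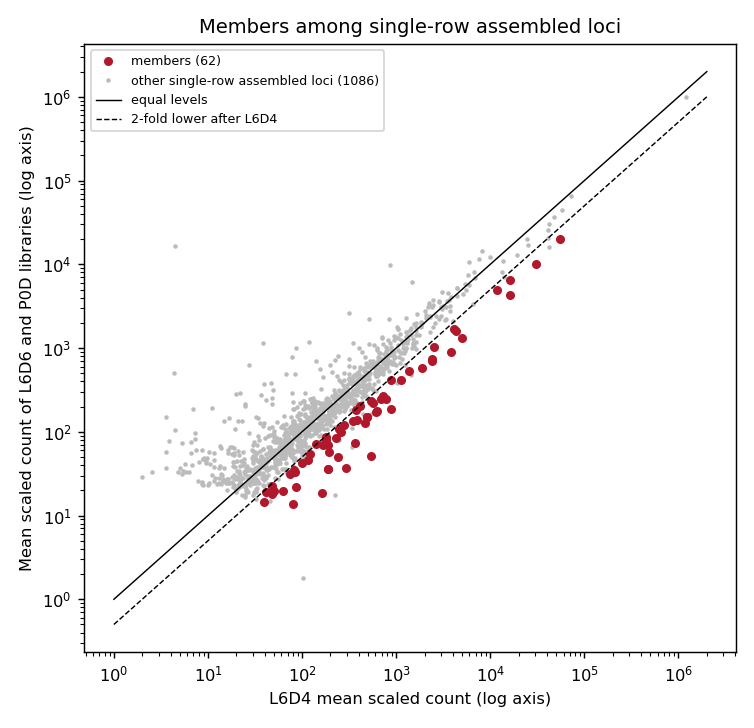
Mean scaled count of the 6 later libraries (vertical, log axis) against the L6D4 mean (horizontal, log axis) for 62 members (red) and 1086 other single-row assembled loci with the minimum count (grey). The members lie on or under the dashed line of 2-fold lower later levels over the whole range of abundance, and none approaches 0.

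The 62 covered a wide range of abundance. Their L6D4 means ran from 39.4 to 54931 scaled counts, with 12 below 100, 35 from 100 to 1000, 10 from 1000 to 10000 and 5 above. The median member stood at 371 scaled counts in L6D4 libraries, 121 at L6D6 and 120 at P0D. For the 1086 other single-row loci with the minimum count, the medians were 121 in L6D4 libraries, 136 in L6D6 libraries and 135 in P0D libraries. The members' median log2 fold was -1.47 for L6D6 against L6D4 and -1.50 for P0D against L6D4, beside -0.03 and 0.03 over all 1148 loci with the minimum count. Of all lncRNA counts the 62 together took 4.38% ± 0.388 in L6D4 libraries, 1.87% ± 0.372 in L6D6 libraries and 2.03% ± 0.46 in P0D libraries (SD, n = 3 each). Without the 2 most abundant members, MSTRG.16782.1 and MSTRG.9724.1, the shares were 2.21% ± 0.336 in L6D4 libraries, 0.962% ± 0.16 in L6D6 libraries and 0.986% ± 0.197 in P0D libraries (SD, n = 3 each). The choice took only lncRNAs lower in the later libraries, so nothing is read from the fall in these shares.

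**Figure D2:**
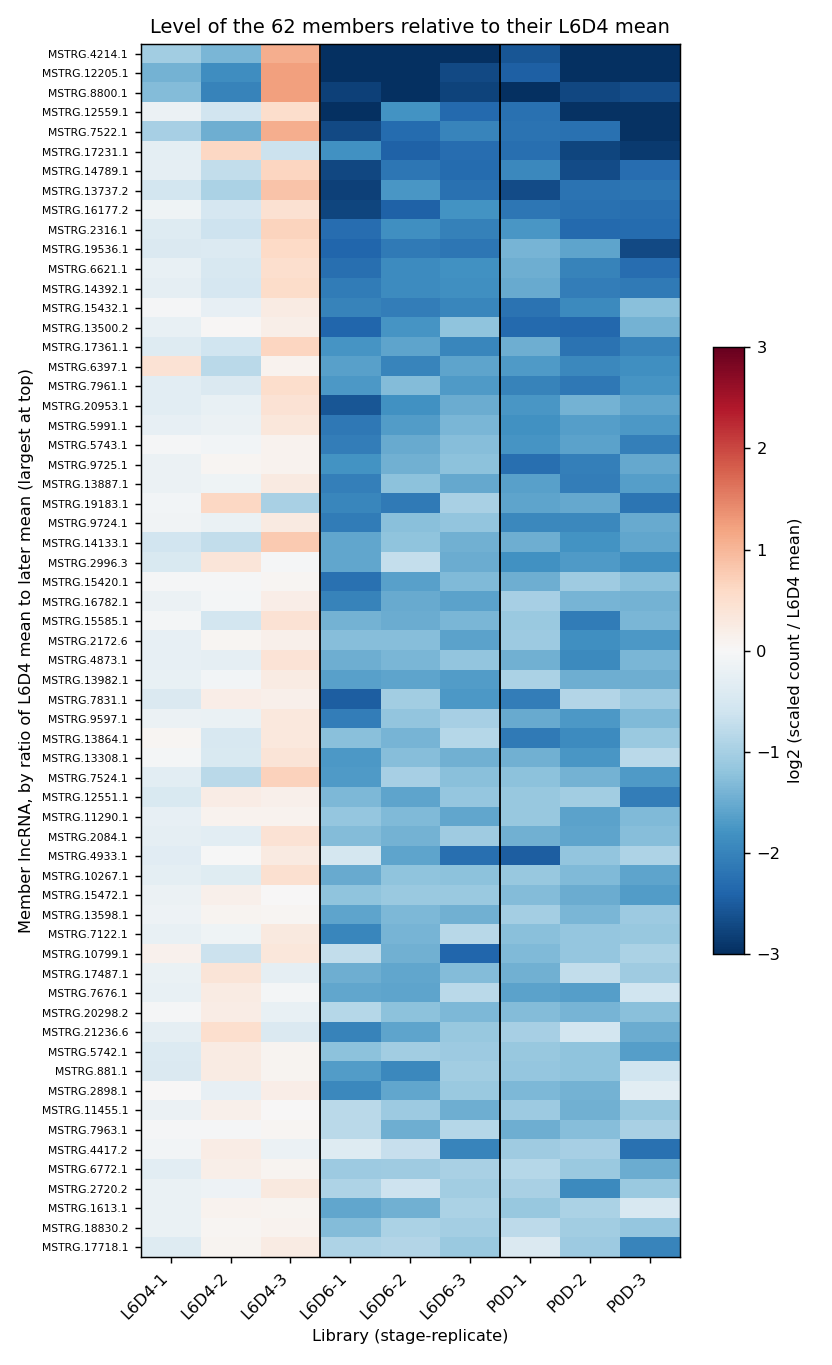
Scaled count of each of the 62 members (rows, largest ratio at the top) in each of the 9 libraries (columns), as log2 of the value over that member's L6D4 mean, with colours capped at 3 in either direction. The later libraries are blue throughout, and in the upper rows L6D4-3 is the reddest column.

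The most abundant member, MSTRG.16782.1, had 48884, 53048 and 62863 scaled counts in the L6D4 libraries, 13648, 19221 and 17983 in the L6D6 libraries and 27746, 20889 and 20690 in the P0D libraries. It was lower at L6D6, at 30.9% of its L6D4 mean, than at P0D, at 42.1%, and the highest L6D6 value lay below the lowest P0D value. MSTRG.9724.1 had 28038, 26289 and 36490 at L6D4, 7088, 12790 and 13427 at L6D6 and 7941, 7920 and 10688 at P0D. Its L6D6 libraries spread over the whole range of its P0D libraries.

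The next 4 in abundance differed in how even their libraries were. MSTRG.10267.1 stood at 13304, 12640 and 22727 scaled counts in L6D4 libraries, 5726, 7044 and 6882 at L6D6 and 7386, 6451 and 5459 at P0D. MSTRG.14392.1 stood at 13271, 11240 and 23590 at L6D4, 3756, 4358 and 4454 at L6D6 and 5589, 3815 and 3696 at P0D. In both, L6D4-3 lay well above the other L6D4 libraries, and the L6D6 and P0D libraries overlapped. MSTRG.6621.1 showed the same order of L6D4 libraries, with 4342, 3640 and 7185 at L6D4, 1052, 1371 and 1438 at L6D6 and 1838, 1267 and 1037 at P0D. MSTRG.7122.1 had 10166, 10918 and 14555 at L6D4, 3036, 4500 and 6620 at L6D6 and 4993, 5325 and 5402 at P0D. Here the L6D6 libraries lay further apart than the P0D libraries.

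The largest ratios belonged to less abundant lncRNAs, and most of them leaned on a single larval library. MSTRG.4214.1 had 262, 210 and 1150 scaled counts in L6D4 libraries, 36.4, 51.7 and 41.3 at L6D6 and 91.2, 56.5 and 29.6 at P0D, a later mean 10.6-fold below the L6D4 mean. Without L6D4-3 the difference was 4.61-fold. MSTRG.12205.1 had 61.4, 45.1 and 382 at L6D4, 12.3, 16.8 and 24.8 at L6D6 and 29.7, 15.4 and 12.1 at P0D. Its later mean was 8.78-fold below L6D4 with all libraries and 2.87-fold below without L6D4-3. MSTRG.8800.1 had 117, 72.1 and 681 at L6D4, 41.4, 29.4 and 42.3 at L6D6 and 19.7, 43.8 and 46.1 at P0D. Its difference was 7.82-fold with all libraries and 2.55-fold without L6D4-3. In these 3 lncRNAs L6D4-3 alone lay far above every other library. In MSTRG.12205.1 and MSTRG.8800.1, L6D4-1 and L6D4-2 lay much nearer to the later libraries. In MSTRG.4214.1 the lowest L6D4 value was still 2.30 times the highest later value.

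MSTRG.7522.1 was of the same kind, with 93.3, 67.3 and 401 scaled counts in L6D4 libraries, 28.8, 37.9 and 47.8 at L6D6 and 40.3, 39.9 and 23.9 at P0D. It was 5.14-fold lower in the later libraries with L6D4-3 and 2.2-fold lower without it. MSTRG.13737.2 had 167, 126 and 438 at L6D4, 34.8, 72.6 and 51.8 at L6D6 and 37.6, 52.7 and 53.0 at P0D, and was 4.83-fold lower with L6D4-3 and 2.90-fold lower without it. These 5 and MSTRG.14133.1 (2.82-fold with L6D4-3 and 1.79-fold without it) were the members whose ratio moved by over 1.5 times when any single library was left out, and in each the library was L6D4-3.

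Other large ratios did not depend on that library to the same degree. MSTRG.17231.1 had 151, 289 and 119 scaled counts in L6D4 libraries, 53.2, 35.0 and 38.0 at L6D6 and 38.7, 27.5 and 25.4 at P0D, with L6D4-2 highest and L6D4-3 lowest before fusion. Its later mean was 5.14-fold below L6D4 with all libraries and 6.07-fold below without L6D4-3, the largest ratio of the 62 in that case. MSTRG.12559.1, a low member, had 70.3, 53.6 and 116 at L6D4, 6.21, 23.1 and 15.8 at L6D6 and 17.0, 10.3 and 10.2 at P0D. It was 5.81-fold lower in the later libraries, and 4.51-fold lower without L6D4-3. MSTRG.14789.1 had 305, 219 and 580 at L6D4, 55.1, 82.3 and 74.4 at L6D6 and 97.0, 57.7 and 75.9 at P0D, 4.99-fold lower with L6D4-3 and 3.55-fold lower without it.

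**Figure D3:**
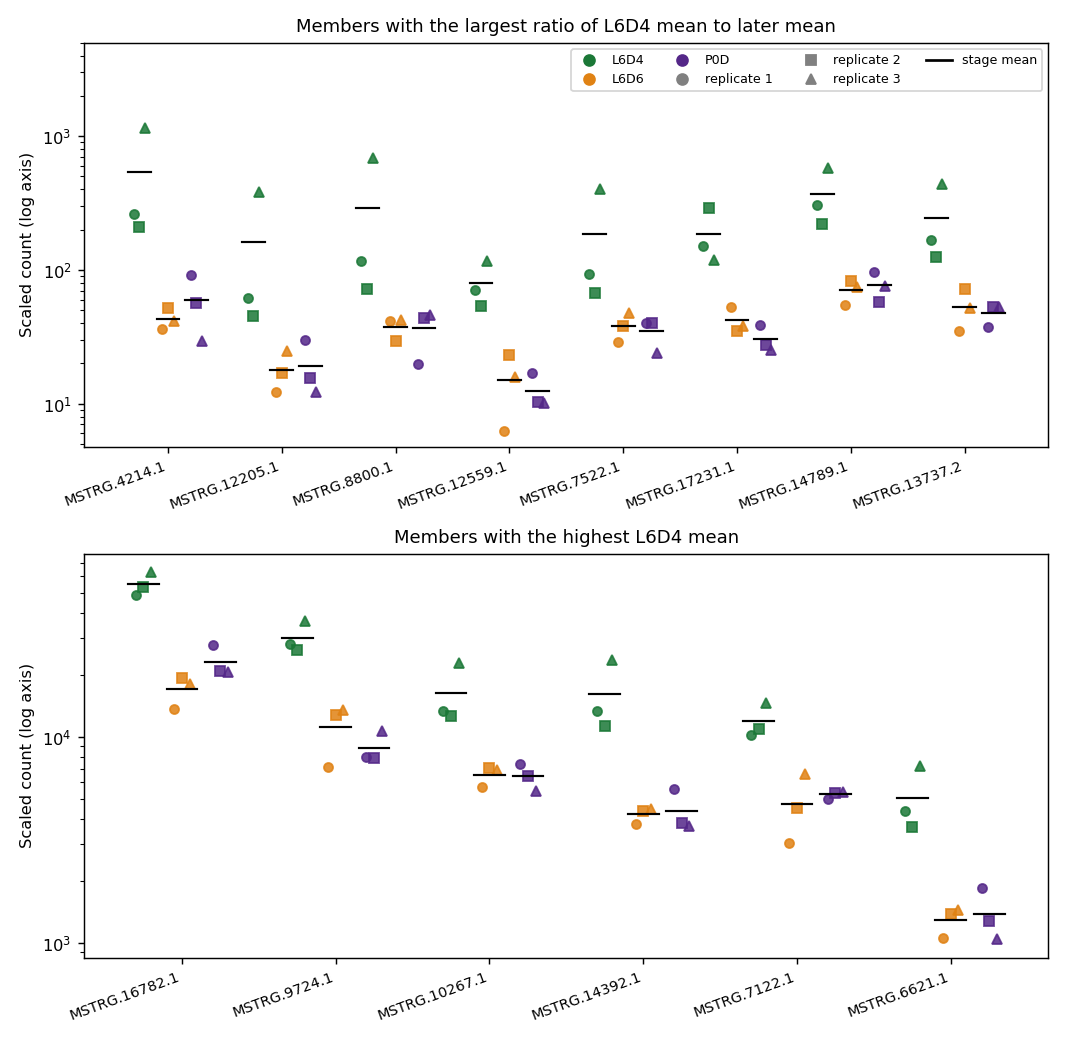
Scaled counts (log axis) of the 8 members with the largest ratio of L6D4 mean to later mean (upper panel) and of the 6 with the highest L6D4 mean (lower panel), by stage and replicate, with the stage mean as a bar. L6D4 replicate 3 (green triangle) is the highest value in 7 of the 8 upper and all 6 lower lncRNAs.

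The L6D4 values entered the choice through their mean and their lowest value, and a high L6D4-3 raises that mean, so the following counts are a description. L6D4-3 was the highest of the 3 L6D4 libraries in 43 of the 62 members (69.4%), against 373 of the 1086 other loci (34.3%). L6D4-2 was highest in 18 members (29.0%), against 387 other loci (35.6%), and L6D4-1 in 1 member (1.6%), against 326 other loci (30.0%). The order L6D4-3, L6D4-1, L6D4-2 from high to low was found in 29 members (46.8%), against 204 other loci (18.8%). The median ratio of L6D4-3 to the mean of L6D4-1 and L6D4-2 was 1.32 in the members, against 0.98 in the other loci. With library totals as the only scaling L6D4-3 was highest in 30 members (48.4%), against 152 other loci (14.0%). L6D4-3 was also the library with the smallest lncRNA total, the smallest size factor (0.597) and the smallest TMM factor (0.741). The part of depth, of composition or of the sampled animals in these values was not tested.

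In 11 members L6D4-3 was at least 2 times the mean of L6D4-1 and L6D4-2, by a factor between 2.03 and 7.19, against 38 of the other loci. They were chosen after their values were seen. Beside the 5 given above and MSTRG.14133.1 and MSTRG.14789.1, these were MSTRG.2316.1, MSTRG.19536.1, MSTRG.17361.1 and MSTRG.7524.1. The highest of them, MSTRG.2316.1, had 2904, 2471 and 6078 scaled counts in L6D4 libraries, 780, 1065 and 930 at L6D6 and 1142, 760 and 764 at P0D. The 11 included 7 of the 10 largest ratios among the members, and their median ratio was 4.83 with L6D4-3 and 2.87 without it. In 10 of the 11, L6D4-2 was the lowest L6D4 library, as it was in 30 of all 62 members and in 336 of the 1086 other loci. In 6 of the 11 the highest later value was in P0D-1, as it was in 18 of all 62 members and in 265 of the 1148 loci with the minimum count.

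Left out of the L6D4 mean, L6D4-3 left 55 of the 62 with a ratio of at least 2 and the members' median ratio at 2.5. The 7 that fell under 2 were MSTRG.10267.1, MSTRG.1613.1, MSTRG.18830.2, MSTRG.2720.2, MSTRG.17718.1, MSTRG.14133.1 and MSTRG.7524.1, with ratios between 1.77 and 2.00 (1.998 for the first of these).

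**Figure D4:**
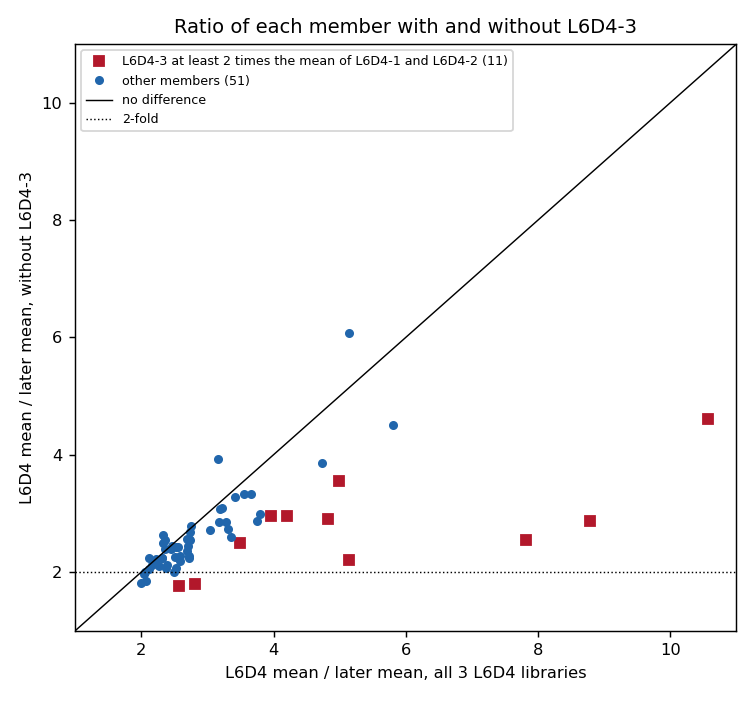
Ratio of L6D4 mean to later mean for each of the 62 members, without L6D4-3 (vertical) and with all 3 L6D4 libraries (horizontal). The 11 lncRNAs with L6D4-3 at least 2 times the mean of the other L6D4 libraries (red squares) lie under the line of no difference, and MSTRG.4214.1 stands at 4.61 without L6D4-3 and at 10.6 with it.

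Some members were instead even across the larval libraries. MSTRG.7963.1 had 41.0, 40.8 and 43.6 scaled counts at L6D4 (coefficient of variation 3.71%), 24.0, 15.1 and 23.2 at L6D6 and 15.1, 17.2 and 21.2 at P0D. MSTRG.15420.1 had 185, 183 and 198 at L6D4 (4.19%), 39.9, 61.2 and 75.0 at L6D6 and 67.9, 90.1 and 78.8 at P0D. In both, the later libraries varied more than the larval ones and still lay below each of them. MSTRG.5743.1, an abundant even member named after its values were seen, had 2328, 2264 and 2573 at L6D4 (6.82%), 567, 836 and 981 at L6D6 and 702, 786 and 574 at P0D. Over the 62, the median coefficient of variation was 23.6% at L6D4, 19.6% at L6D6 and 23.5% at P0D, beside 19.6% at L6D4, 14.2% at L6D6 and 21.5% at P0D in the other loci.

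The distance between the stages also differed between members. The lowest L6D4 value was between 1.01 and 2.46 times the highest later value, with a median of 1.69. It was at least 2 times that value in 14 members and under 1.2 times in 10. The widest gap was in MSTRG.16177.2, with 812, 622 and 1213 scaled counts in L6D4 libraries, 132, 165 and 253 at L6D6 and 195, 187 and 185 at P0D. MSTRG.12559.1 had the next widest, at 2.33 times. The narrowest was in MSTRG.19183.1, with 58.6, 95.6 and 31.8 at L6D4, 16.0, 14.3 and 31.5 at L6D6 and 20.8, 21.5 and 13.5 at P0D, so that L6D4-3 and L6D6-3 were nearly equal. Depth limits this reading: with exact 95% Poisson intervals, which cover counting error only, the interval of the lowest L6D4 value and that of the highest later value overlapped in 24 of the 62, whose L6D4 means ran from 39.4 to 566 scaled counts. In the other 38 they did not overlap. The choice had itself set these 2 values apart, and intervals were taken for the members only. With no share over all loci beside them, the 38 are not read as a result.

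After the prepupal drop the level was flat by choice, and small differences went both ways. The P0D mean was above the L6D6 mean in 25 members and below it in 37, with ratios from 0.668 to 1.48 and a median log2 fold of -0.07. In the other loci P0D was above L6D6 in 578 of 1086. The strongest partial return was in MSTRG.21236.6, with 450, 769 and 396 scaled counts in L6D4 libraries, 135, 181 and 244 at L6D6 and 271, 365 and 193 at P0D. MSTRG.2898.1 had 184, 153 and 208 at L6D4, 47.9, 62 and 83.4 at L6D6 and 71.7, 67.8 and 146 at P0D, with P0D-3 well above the other P0D libraries. The lowest P0D levels relative to L6D6 were in MSTRG.2996.3, with 277, 493 and 375 at L6D4, 130, 232 and 135 at L6D6 and 108, 117 and 107 at P0D, and in MSTRG.13864.1, with 268, 185 and 323 at L6D4, 109, 97.8 and 144 at L6D6 and 59.4, 69.5 and 120 at P0D. In MSTRG.2996.3 every P0D library lay below every L6D6 library, while in the other 3 the P0D and L6D6 libraries overlapped.

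Of the limits of the choice, the 2-fold limit alone kept out the most loci. Just inside the 2-fold limit stood MSTRG.17718.1, with a ratio of 2.00 and with 107, 149 and 168 scaled counts in L6D4 libraries, 74.5, 77.1 and 65.8 at L6D6 and 105, 66.1 and 35.6 at P0D, and MSTRG.18830.2, at 2.04. Just outside it, with all other conditions met, stood MSTRG.1953.1 at 1.99 and MSTRG.1747.1 at 1.98, and 87 loci failed on that limit alone. Only 6 loci failed on overlap alone, the nearest being MSTRG.17084.2 and MSTRG.11184.1, whose lowest L6D4 values were 0.957 and 0.954 times their highest later values. Another 13 failed on the flat later course alone, 9 with a lower and 4 with a higher P0D mean. Of these, MSTRG.10026.1 missed the 1.5-fold limit narrowly (1.5003) and was 5.16-fold lower in the later libraries than at L6D4, and MSTRG.13840.1 had a P0D mean 0.641 times its L6D6 mean. The 62 are thus the part of a continuous range that a set of limits takes, most of all the 2-fold limit.

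A model was also fitted to the whole table, with the same values behind it. By edgeR's quasi-likelihood test on 1913 lncRNAs (Benjamini-Hochberg adjusted p under 0.05), 59 of the 62 were called lower at L6D6 than at L6D4, where 9.1% of all tested lncRNAs were, and 61 were called lower at P0D than at L6D4, where 12.5% were. Of the 62, 58 were called in both, where at most 9.1% of all tested lncRNAs could be. These comparisons share the L6D4 libraries with each other and with the choice, so nothing is read from the counts. With library totals as the only scaling, 40 were called lower at L6D6 than at L6D4, where 4.08% of all tested lncRNAs were, and 39 lower at P0D than at L6D4, where 5.12% were. For P0D against L6D6 edgeR called 0 of the 62, where 1.31% of all tested lncRNAs were called lower and 0.47% higher. DESeq2 and limma-voom also called 0, where 1.78% and 1.41% of all were called lower. An unadjusted edgeR p under 0.05 was found for 2 of the 62, with no share over all lncRNAs counted beside it. The choice took only lncRNAs with these 2 stage means less than 1.5-fold apart, so nothing is read from these counts either. The fitted log2 folds of MSTRG.16782.1 were -1.71 (SE 0.20) for L6D6 against L6D4 and -1.28 (SE 0.20) for P0D against L6D4. Those of MSTRG.4214.1 were -3.65 (SE 0.63) and -3.22 (SE 0.62), with larger errors.

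Other kinds of rows met the same value limits at similar rates. Of 1148 single-row assembled loci with the minimum count 5.4% did, of 265 transcripts from assembled loci with several rows 13 did (4.91%), and of 197 annotated transcripts 7 did (3.55%). The mirror image, with all 6 later libraries above all 3 L6D4 libraries, a later mean at least 2 times the L6D4 mean and the same flat later course, was met by 88 single-row loci, more than the 62.

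The members also differed from the other loci in how their counts were made up. All 9 values were whole numbers, exactly as deposited, in 25 of the 62 (40.3%), against 684 of the 1086 other loci (63.0%). No value was whole in 32 members, against 268 other loci. Decimals arise where a counting tool divides reads between features, so the level of such a member may include reads it shares with another transcript. Among these were MSTRG.16782.1, MSTRG.4214.1 and MSTRG.8800.1, while MSTRG.9724.1, MSTRG.10267.1 and MSTRG.17231.1 had whole counts only. Of the 11 members with a high L6D4-3, 10 had no whole value and MSTRG.12205.1 had 1. No member had the same 9 values as another row of the table.

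A few members had neighbouring ID numbers. Assemblers commonly number loci along the assembled sequences, but positions were not used here, so whether such loci lie side by side was not checked. Of the 62, 8 had another member within 2 numbers, in 4 pairs. In the pair MSTRG.9724.1 and MSTRG.9725.1 the levels kept a narrow proportion, with counts of MSTRG.9725.1 at 4.87% to 7.57% of those of MSTRG.9724.1 in the later libraries and 5.5% to 7.33% at L6D4. MSTRG.9725.1 itself stood at 1646, 1926 and 2008 scaled counts in L6D4 libraries, 537, 685 and 795 at L6D6 and 387, 450 and 638 at P0D. MSTRG.7522.1 and MSTRG.7524.1 both leaned on L6D4-3. The share was less even here, since counts of MSTRG.7522.1 were 13.3% to 20.1% of those of MSTRG.7524.1 in the later libraries and 20.4% to 43.8% at L6D4. The other pairs were MSTRG.5742.1 with MSTRG.5743.1 and MSTRG.7961.1 with MSTRG.7963.1. Beyond these pairs, 16 other single-row loci with the minimum count lay within 2 numbers of a member. Of these, 7 were lower and 9 higher at L6D6 than at L6D4, with a median log2 fold of 0.08. The choice itself gave both loci of a pair their like course and kept these 16 out, so the 2 sets are not compared.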

How the data were processed

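RNA of 9 testis libraries was sequenced by the submitters. Per the labels' protocols, ribosomal RNA was removed, strands were marked with dUTP and sequencing was on an Illumina NovaSeq instrument; the labels' molecule field says polyA RNA. Values in the deposited table are estimated counts (expected counts) of lncRNA transcripts, with no scaling for depth. The submitters' processing notes name, without saying what each did, StringTie 1.3.4, HISAT2 2.1.0, Bowtie2 2.2.8, DESeq2 1.6.3 and fastp 0.18.0. Genome build, lncRNA filters, counting tool and any use of strand in counting: not given in the sources used here. Levels of overlapping transcripts are therefore uncertain. Between 62.0% and 66.0% of a library's deposited values are whole.

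Size factors were medians of ratios over the 1872 rows with a count in every library, and the choice was applied to the values as deposited, with the minimum mean count taken before scaling. Columns were matched to libraries by title, and 0 were left unmatched. Libraries of the same stage differed by more than sampling noise in every pair (a chi-square of 15.4 to 126 times its degrees of freedom). The model was edgeR 4.0.16 in R 4.3.3 on rounded counts of all 9 libraries (TMM, filterByExpr by stage, 6 residual degrees of freedom). It tested 1913 lncRNAs and all 62 members, and 563 were left out for low counts. It had been planned for whole counts, so the deposited estimates were rounded; it was tested on simulated data. Alternatives were DESeq2 1.42.0, limma 3.58.1 (voom), other scalings, other limits and each library left out.

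The members and all lists were chosen with earlier results of these data known. The lncRNAs named were the 8 with the largest ratio, the 6 most abundant, the extremes in P0D to L6D6 ratio, larval variation and gap between stages (2 each way), and those next to each limit; all others were named after their values were seen. No member had 0 counts in all later libraries. No sequences or positions of assembled transcripts were used here.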

Additional observations from a re-analysis of the deposited data

How the results depend on the processing

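The number of lncRNAs meeting the choice depended most on its 2-fold limit and on the scaling. It was 107 with a limit of 1.5-fold and 25 with 3-fold, and 35 (34 of them among the 62) with library totals as the only scaling, which moved the median log2 fold of all loci with the minimum count to 0.29 for L6D6 and 0.40 for P0D against L6D4. With that scaling the members' median log2 fold was -1.13 for L6D6 against L6D4 and -1.12 for P0D against L6D4, and 39 members were called lower at P0D than at L6D4, where 5.12% of all tested lncRNAs were. The cause of these shifts was not tested. Of the 62, 33 met the choice under all 4 other scalings. The other limits and scalings, of which the mean of scaled counts was added after seeing the data, gave 42 to 74, and leaving out 1 library gave 61 to 73, of which 54 to 62 were among the 62. Without 1 library, edgeR called 48 to 60 members lower at L6D6 than at L6D4 (5.11% to 10.3% of all tested lncRNAs) and 51 to 59 lower at P0D than at L6D4 (8.1% to 11% of all). The 10 most abundant lncRNAs include 1 member. Without these 10, the other members' share of the remaining counts was 9.86% at L6D4, 3.85% at L6D6 and 3.77% at P0D. Of 528 values for the log2 folds of the named members under alternatives, 520 moved by less than the spread between libraries, 8 moved by more (all with library totals as the only scaling) and 0 changed direction. That spread includes the library left out, and a library of a stage outside the comparison cannot move its fold, so the 520 are no measure of stability. For L6D6 against L6D4, MSTRG.8800.1 went from -2.94 to -1.33 without L6D4-3 and was still counted among the 520. Replicate numbers are shared between stages, but the labels do not say that they pair the libraries, and deviations of same-numbered libraries correlated at -0.154 to 0.089. With the replicate block edgeR called 56 members lower at L6D6 than at L6D4 (8.1% of all tested lncRNAs) and 60 lower at P0D than at L6D4 (10.9% of all). For P0D against L6D6 it called 0 (1.2% of all were called lower), where the choice itself kept the means less than 1.5-fold apart. Depth limits the members with few counts, as given with the counting intervals.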
